A study of Arabidopsis thaliana with 76 samples.

Results

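The starchless mutant *pgm* was compared with wild type (WT) at dawn, in *Arabidopsis thaliana* seedlings grown at 17°C. The comparison was fixed by the sample labels alone and takes 4 of the 76 RNA-seq libraries of the series, 2 of *pgm* and 2 of WT, all sampled at Zeitgeber time (ZT) 0, the moment the lights come on. The series as a whole asked how chloroplast signals and starch metabolism alter daily gene expression, and holds WT and *ss4-1* time courses, starch mutants sampled at ZT0 and ZT2, and seedlings treated with inhibitors of photosynthetic electron transport. Every library used here came from whole seedlings of the Col-0 ecotype, 8 days old, in short days of 8 h light and 16 h dark at 170 μmol light, with RNA from a pool of 25 seedlings. The *pgm* seedlings carry a mutation of *PGM1*, while WT carries none of the starch mutations. Where they touch a result, the *pgm* and WT libraries at ZT2 (2 each) and the WT libraries at 8 times of the same day at 17°C (16 libraries) are set beside the dawn values. The model also held, with 2 libraries each at ZT0 and ZT2, *ss3/ss4* (here *ss3/4*), which carries mutations of the starch synthases *SS3* and *SS4*, and *ss3/ss4/pgm* (*ss3/4/pgm*), which carries the *pgm* mutation as well, and their dawn values are given at the end with those of *ss4-1*, a mutant of *SS4*. No label says that the 25 seedlings of the 2 pools of a group were grown separately, so p-values measure the spread between these pools, which may be technical.

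*PGM1* encodes the plastidial phosphoglucomutase, which makes the glucose 1-phosphate from which ADP-glucose and then starch are built in the light. A plant that lacks it keeps its daytime carbon as soluble sugars, uses them up early in the night, and meets the rest of the night without a carbohydrate reserve. Low sugar activates the kinase SnRK1, which is known to switch on genes for breaking down amino acids, lipids and cell contents and to switch off genes for growth and biosynthesis.

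The 2 *pgm* libraries at ZT0 held 6836099 and 3204754 counts, against 8382060 and 10147219 counts in the 2 WT libraries, and the second *pgm* library was the shallowest of the 44 libraries at 17°C. Levels are given as CPM, counts scaled to library size with a factor from the trimmed mean of M values (TMM), and 3 counts, taken as the lowest level that can be told from 0, correspond to 0.567 and 1.28 CPM in *pgm* and to 0.343 and 0.286 CPM in WT. *PGM1* itself (TAIR10.1 chr5:21063298-21068327) had 10.4 and 13.2 CPM in *pgm*, against 96.4 and 96.4 CPM in WT (log2 fold change -3.10 ± 0.14, adjusted p = 2.1e-12). Here and throughout, the adjusted p comes from the quasi-likelihood test of edgeR after Benjamini-Hochberg correction over all genes, and the error of a log2 fold change is its SE. Across all 17°C libraries it lay between 10.4 and 28.6 CPM in the 8 that carry the *pgm* mutation and between 67.5 and 313 CPM in the other 36, as the labels have it. Of 20130 genes tested, 11478 (57.0%) passed an adjusted p of 0.05, of which 5661 (28.1% of the genes tested) were higher and 5817 (28.9%) were lower in *pgm*. Changes of at least 2-fold were called for 2251 genes in the higher direction (11.2%) and 3129 in the lower (15.5%). These calls depend on the scaling. In the fit, the TMM factors at ZT0 were 0.876 and 0.809 in *pgm*, against 1.16 and 1.14 in WT. With library totals alone, a setting chosen after seeing the data, 2861 genes were higher and 9512 lower. Higher genes then made up 23.1% of the calls in place of 49.3%. The median log2 fold change of all genes moved to -0.51 from -0.07. A shift of that size is small beside the changes of the carbon starvation genes but not beside those of large gene families.

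All 21 sugar starvation markers, genes known to be switched on in the dark or by sugar loss, were higher in *pgm* at dawn, against 28.1% of all genes tested, with a median log2 fold change of 2.54 (median of all genes -0.07). Of these, 20 had changed by at least 2-fold, and for 18 both *pgm* libraries lay above all 16 WT libraries of the day, as they did for 24.9% of all genes tested. *SEN1*, the classical dark-inducible gene also called *DIN1*, had 3263 and 4299 CPM in *pgm*, against 75.7 and 50.8 CPM in WT, a 59.4-fold difference (log2 fold change 5.89 ± 0.24, adjusted p = 4.9e-13). *ASN1*, the asparagine synthetase that stores nitrogen released from proteins in a carbon-poor form, had 3466 and 3652 CPM in *pgm*, against 93.5 and 63.3 CPM in WT (5.49 ± 0.25, adjusted p = 2.9e-12). The *pgm* and WT values of both genes were separated by more than the spread within either pair. Genes of sugar metabolism in the list moved in the same way: *DIN10*, a raffinose synthase family protein, had 3064 and 3178 CPM in *pgm*, against 311 and 269 CPM in WT (3.41 ± 0.19). The beta-galactosidase *BGAL4* had 1006 and 874 CPM in *pgm*, against 76.8 and 62.2 CPM in WT (3.75 ± 0.15). *DRM2*, a dormancy-associated gene, stood at 576 and 587 CPM in *pgm*, against 40.6 and 38.2 CPM in WT (3.87 ± 0.15). The smallest 3 rises of the list were those of *TPS8*, *TPS9* and *TPS10*, class II trehalose phosphate synthase proteins, which are thought to act in sugar signaling rather than in making trehalose. Their relative *TPS11* had 437 and 408 CPM in *pgm*, against 125 and 102 CPM in WT (1.88 ± 0.19). *TPS9* had 395 and 364 CPM in *pgm*, against 164 and 157 CPM in WT (1.23 ± 0.12). *TPS10*, the only member under 2-fold, had 194 and 174 CPM in *pgm*, against 108 and 90 CPM in WT (0.88 ± 0.12).

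Genes of amino acid breakdown rose as strongly. Of the 17 members, 14 were higher, against 28.1% of all genes tested, none was lower, and the median log2 fold change was 3.25. *BCAT2*, a branched-chain aminotransferase that takes the first step in breaking down leucine, isoleucine and valine, had 738 and 683 CPM in *pgm*, against 21.4 and 13.1 CPM in WT, 41.2-fold higher (5.36 ± 0.18, adjusted p = 9.6e-14). The steps after it rose with it. The dehydrogenase complex subunits *DIN3* and *DIN4*, which also count among the starvation markers, had 579 and 607 CPM and 581 and 607 CPM in *pgm*, against 43.4 and 38 CPM and 39.2 and 38.1 CPM in WT (3.85 ± 0.14 and 3.93 ± 0.13). *IVD*, isovaleryl-CoA dehydrogenase, had 864 and 869 CPM in *pgm*, against 87.7 and 71.4 CPM in WT (3.43 ± 0.13). *MCCA*, a subunit of methylcrotonyl-CoA carboxylase in the leucine route, had 1475 and 1476 CPM in *pgm*, against 93.4 and 73.4 CPM in WT (4.13 ± 0.16). In each case the 2 *pgm* pools lay close to each other and both WT pools lay far lower. *LKR/SDH*, the bifunctional enzyme of lysine breakdown, had 996 and 925 CPM in *pgm*, against 73.2 and 58.9 CPM in WT (3.85 ± 0.19). Proline breakdown was split between its enzymes. *ProDH1*, proline dehydrogenase, had 4496 and 4732 CPM in *pgm*, against 227 and 197 CPM in WT, 21.6-fold higher (4.43 ± 0.17, adjusted p = 3.3e-13). *P5CDH*, the next enzyme, had 77.3 and 71.8 CPM in *pgm*, against 70.3 and 58.7 CPM in WT, and did not pass (adjusted p = 0.33). The glutamate dehydrogenases *GDH1* and *GDH2*, which return amino acid carbon to the respiratory cycle, were 6.35-fold and 5.69-fold higher. The other members that did not pass were *BCAT1*, with 8.69 and 11.5 CPM in *pgm*, against 10.4 and 10.5 CPM in WT, and the hydroxyglutarate dehydrogenase *D2HGDH*, with 29.5 and 30.3 CPM in *pgm*, against 29.4 and 27.6 CPM in WT.

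**Figure D1:**
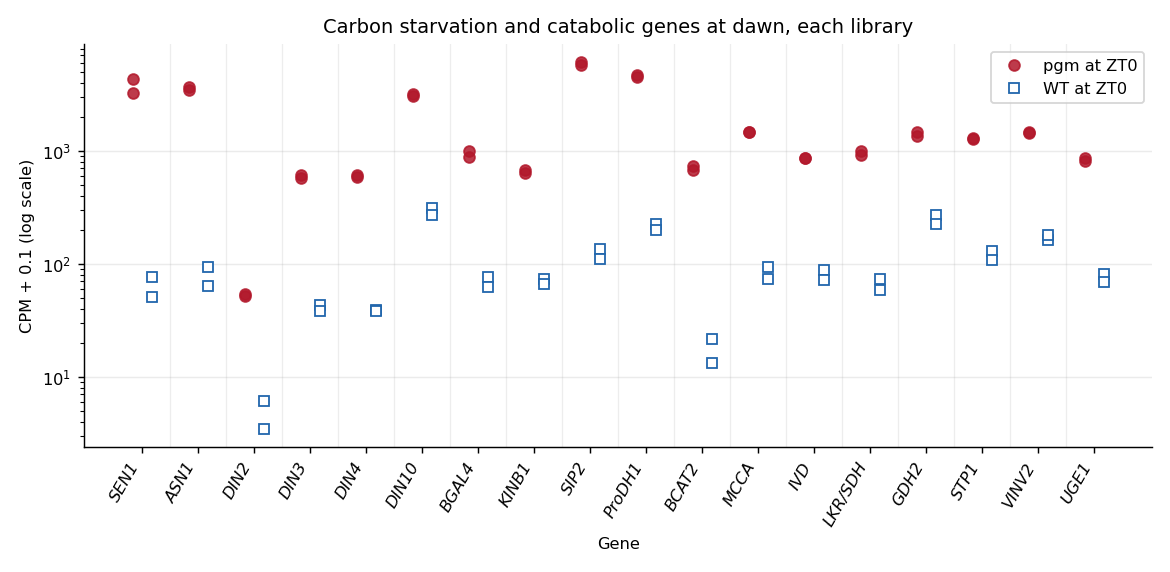
Level of 18 starvation and catabolic genes in each library at ZT0, as CPM plus 0.1 on a log axis, with *pgm* (filled circles) left of WT (open squares) for each gene. For every gene shown, both *pgm* libraries lie above both WT libraries, with *SIP2* highest in *pgm* at 5785 and 6085 CPM.

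Some genes for taking up and cleaving sugars rose by as much. Of 23 genes of sugar transport and sucrose use, 14 were higher and 3 lower, against 28.1% and 28.9% of all genes tested (median log2 fold change 0.63). *STP1*, a hexose importer of the plasma membrane that sugar represses, had 1263 and 1313 CPM in *pgm*, against 129 and 108 CPM in WT (3.43 ± 0.24). *STP14*, a galactose importer, had 126 and 116 CPM in *pgm*, against 9.04 and 10.8 CPM in WT (3.59 ± 0.14). The vacuolar invertase *VINV2*, which splits sucrose stored in the vacuole, had 1448 and 1476 CPM in *pgm*, against 162 and 178 CPM in WT (3.09 ± 0.15). *UGE1*, an epimerase that joins UDP-galactose to UDP-glucose use, had 864 and 820 CPM in *pgm*, against 80.3 and 68.5 CPM in WT (3.49 ± 0.12). Import, release from the vacuole and interconversion of sugars were all represented among these rises. *SIP2*, a raffinose-cleaving galactosidase that came into the text as 1 of the 15 largest rises, reached 5785 and 6085 CPM in *pgm*, against 135 and 109 CPM in WT, 48.3-fold higher (5.59 ± 0.22, adjusted p = 4.9e-13). Of the 3 genes that fell in this list, 2 serve export. *SUC2*, which loads sucrose into the phloem, had 58.8 and 55.5 CPM in *pgm*, against 120 and 105 CPM in WT (-0.99 ± 0.13). The phloem sucrose exporter *SWEET11* had 107 and 102 CPM in *pgm*, against 157 and 155 CPM in WT (-0.59 ± 0.18), a call lost without the first *pgm* library (-0.62). The third, *SPS4F*, encodes a sucrose phosphate synthase, with 52.5 and 39.7 CPM in *pgm*, against 70 and 91.1 CPM in WT (-0.79 ± 0.17).

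Subunits of the SnRK1 kinase and bZIP factors that act with it were higher or did not pass. Of the 15 listed, 10 were tested, 7 were higher, against 28.1% of all genes tested, and none was lower (median log2 fold change 0.85). *KINB1*, a beta subunit of SnRK1 that is also a starvation marker, had 631 and 679 CPM in *pgm*, against 73.3 and 66.3 CPM in WT (3.22 ± 0.14). Of the catalytic subunits, *KIN11* had 174 and 188 CPM in *pgm*, against 53.1 and 49 CPM in WT (1.81 ± 0.15). *KIN10* had 98 and 106 CPM in *pgm*, against 62.5 and 62.6 CPM in WT (0.68 ± 0.12, or 0.24 and not passed with library totals alone). *bZIP63*, a factor that SnRK1 phosphorylates, had 189 and 179 CPM in *pgm*, against 110 and 102 CPM in WT (0.78 ± 0.12). *bZIP9* of the same group rose more, with 216 and 211 CPM in *pgm*, against 57.5 and 52.7 CPM in WT (1.94 ± 0.11). *bZIP1* and *bZIP44* are listed at 0 in all 4 libraries and in every WT library of the day, and whether that is their level or comes from how they were counted was not tested. *bZIP2*, *bZIP11* and *bZIP53* were not analysed here.

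The 250 bases before the start of 5 of these genes are shown, from RefSeq's TAIR10.1, as examples of the rise: the starvation markers *ASN1* and *SEN1*, the SnRK1 subunit *KINB1*, the sugar importer *STP1*, and *SIP2* from the leading rises. Capitals mark letters found on either strand of a G-box (CACGTG), which bZIP factors are known to bind, a TATCCA element (TATCCA, read as TGGATA on the other strand), an evening element (AAAATATCT) or a telo-box (AAACCCTA), and none of these strings holds another. They are the promoters of *ASN1* (chr3:17441432-17441681, minus strand), *SEN1* (chr4:16944628-16944877, plus strand), *SIP2* (chr3:21293172-21293421, minus strand), *KINB1* (chr5:7205227-7205476, plus strand) and *STP1* (chr1:3776986-3777235, plus strand), written 5′ to 3′ on the gene's own strand.
ASN1: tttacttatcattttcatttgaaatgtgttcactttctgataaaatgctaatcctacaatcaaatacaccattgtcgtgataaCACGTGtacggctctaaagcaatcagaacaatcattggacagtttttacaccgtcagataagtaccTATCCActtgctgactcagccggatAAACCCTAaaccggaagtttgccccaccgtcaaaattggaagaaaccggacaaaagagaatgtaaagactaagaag
SEN1: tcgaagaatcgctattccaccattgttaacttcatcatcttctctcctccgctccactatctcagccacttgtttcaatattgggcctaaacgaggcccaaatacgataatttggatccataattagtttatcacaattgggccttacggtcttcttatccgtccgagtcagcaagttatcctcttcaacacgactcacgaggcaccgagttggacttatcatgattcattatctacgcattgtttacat
SIP2: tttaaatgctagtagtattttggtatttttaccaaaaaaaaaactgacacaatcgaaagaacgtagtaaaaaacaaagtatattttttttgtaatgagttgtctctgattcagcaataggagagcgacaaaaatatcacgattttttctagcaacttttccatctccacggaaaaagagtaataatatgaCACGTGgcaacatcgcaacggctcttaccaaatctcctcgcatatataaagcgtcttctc
KINB1: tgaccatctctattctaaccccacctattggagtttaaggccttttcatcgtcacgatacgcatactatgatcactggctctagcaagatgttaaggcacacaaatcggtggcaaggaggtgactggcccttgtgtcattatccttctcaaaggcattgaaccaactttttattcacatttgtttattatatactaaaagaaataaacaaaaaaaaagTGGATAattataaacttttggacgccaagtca
STP1: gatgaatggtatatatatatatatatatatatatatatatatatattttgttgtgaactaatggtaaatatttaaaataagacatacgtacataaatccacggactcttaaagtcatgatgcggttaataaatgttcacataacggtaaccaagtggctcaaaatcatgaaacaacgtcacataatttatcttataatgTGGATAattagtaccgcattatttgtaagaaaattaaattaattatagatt

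*ASN1* held a G-box starting 167 bases, a TATCCA element 101 bases and a telo-box 76 bases before the start. *SIP2* held a G-box 60 bases before it, *KINB1* and *STP1* each held TGGATA, 32 and 51 bases before it, and *SEN1*, the marker with the largest change, held none of the 4 strings in this window. Among the 21 starvation markers 6 promoters (28.6%) held the TATCCA element, against 13.1% of all 32809 promoters of the table and 14% of those of genes tested, and 2 (9.52%) held a G-box, against 5.82% and 7.35%. A telo-box was held by 3 of the marker promoters (14.3%), against 4.75% and 3.58%, and an evening element by 1 (4.76%), against 2.22% and 2.43%. Among the amino acid breakdown genes 4 of 17 promoters (23.5%) held the TATCCA element and 1 (5.88%) held a G-box. The TATCCA element was also held by 8 of 29 promoters (27.6%) of the autophagy genes, whose rises were smaller. A match of letters is a description and not a site of binding.

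Autophagy genes, which carry cell contents to the vacuole for reuse, rose in smaller steps. Of 29 tested, 20 were higher, against 28.1% of all genes tested, and 1 was lower (median log2 fold change 0.68), and 19 lay above every WT library of the day, against 24.9% of all genes tested. The ATG8 proteins, which coat the growing autophagosome, were higher for 8 of 9 genes. *ATG8F* had 414 and 402 CPM in *pgm*, against 117 and 116 CPM in WT (1.80 ± 0.10). *ATG8E* had 252 and 277 CPM in *pgm*, against 82.1 and 87 CPM in WT (1.63 ± 0.12). *ATG12A*, the ubiquitin-like protein joined to ATG5, had 32.3 and 32.9 CPM in *pgm*, against 6.41 and 10.3 CPM in WT (1.92 ± 0.19). The cargo receptor *NBR1* had 324 and 316 CPM in *pgm*, against 185 and 178 CPM in WT (0.80 ± 0.14). The lower member was the kinase *ATG1A*, which starts the process, with 27.6 and 24.8 CPM in *pgm*, against 34 and 33 CPM in WT (-0.35 ± 0.12), a call that was lost without either *pgm* library (-0.44 and -0.31) or without the first WT library (-0.32), and in DESeq2 (-0.34). With library totals alone the autophagy count was 11 higher and 5 lower.

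Of 18 genes of fatty acid oxidation and the glyoxylate cycle, 12 were higher, against 28.1% of all genes tested, and 1 was lower (median log2 fold change 1.10). *ACX4*, the short-chain acyl-CoA oxidase, had 1223 and 1313 CPM in *pgm*, against 214 and 202 CPM in WT (2.59 ± 0.12). Both enzymes particular to the glyoxylate cycle were higher. *ICL*, isocitrate lyase, had 109 and 101 CPM in *pgm*, against 42.6 and 28.3 CPM in WT (1.57 ± 0.28). *MLS*, malate synthase, had 34.4 and 38.4 CPM in *pgm*, against 11.2 and 8.21 CPM in WT (1.88 ± 0.19). The lipase *SDP1*, which opens the route by cutting storage oil, had 232 and 211 CPM in *pgm*, against 72.8 and 71.5 CPM in WT (1.61 ± 0.12). The member that fell was the thiolase *KAT5*, with 3.21 and 4.27 CPM in *pgm*, against 6.18 and 10.3 CPM in WT (-1.25 ± 0.34), a call that was lost without the first *pgm* library (-0.97) or the second WT library (-0.81).

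**Figure D2:**
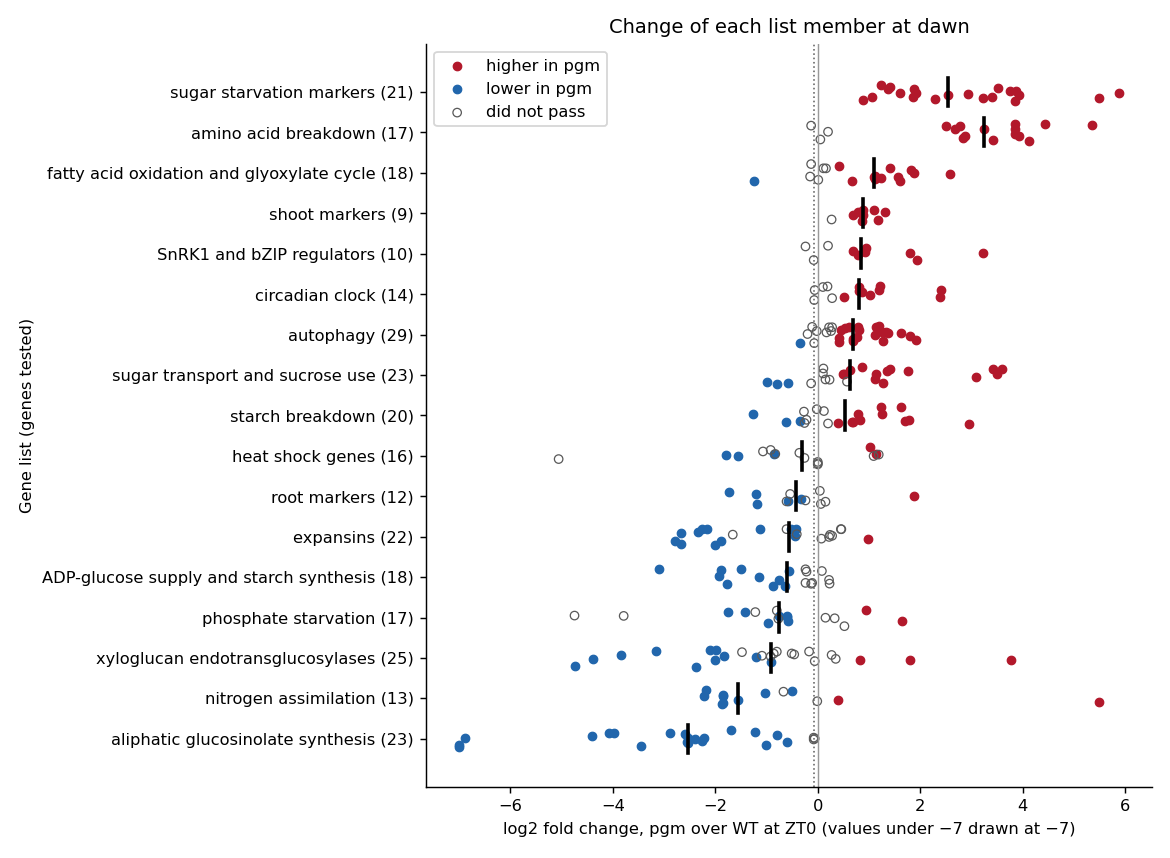
Log2 fold change of *pgm* over WT at ZT0 for each tested member of 17 gene lists, 1 dot a gene (red higher, blue lower, open not passed) with a black bar at the list median and a dotted line at the median of all genes, -0.07. Starvation and amino acid breakdown lists lie to the right (medians 2.54 and 3.25), nitrogen assimilation and glucosinolate synthesis to the left (medians -1.56 and -2.53).

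The starch genes themselves split by direction of the pathway. Of 20 genes of starch breakdown tested, 11 were higher and 3 lower (median log2 fold change 0.54), and of 18 genes of ADP-glucose supply and starch synthesis, none was higher and 10 were lower (median -0.60), where 28.1% of all genes tested were higher and 28.9% lower. The lowest of these 10 was *PGM1*, the gene mutated in *pgm*, so its place among them follows from the genotype. *BAM4*, a plastid beta-amylase protein without catalytic activity that is needed for starch breakdown, had 174 and 162 CPM in *pgm*, against 20.8 and 22.2 CPM in WT (2.95 ± 0.11, adjusted p = 2.6e-13). *BAM9*, another member of the family, had 724 and 794 CPM in *pgm*, against 235 and 254 CPM in WT (1.62 ± 0.14). *BAM1* and *BAM3*, which release maltose from starch, had 278 and 243 CPM and 660 and 583 CPM in *pgm*, against 75.3 and 74.1 CPM and 241 and 277 CPM in WT (1.79 ± 0.12 and 1.25 ± 0.12). All 4 of these beta-amylase family genes lay above every WT library of the day. That held for 5 of the 20 breakdown genes tested, a share near the 24.9% of all genes tested. In the same family *BAM2* was no higher, with a mean of 25.2 CPM in *pgm* and 29.8 CPM in WT. *BAM5* and *BAM6* were at or near 0 in both groups. The plastid phosphorylase *PHS1* was lower, with 25.7 and 19.6 CPM in *pgm*, against 56 and 56 CPM in WT (-1.27 ± 0.16). On the synthesis side *GBSS1*, which makes amylose within the granule, had 70.3 and 70.9 CPM in *pgm*, against 228 and 248 CPM in WT (-1.77 ± 0.14). The debranching enzyme *ISA2* had 9.63 and 11.1 CPM in *pgm*, against 38.9 and 36.8 CPM in WT (-1.92 ± 0.15). Both lay below WT by far more than the pools of either group differed. *SS4*, the synthase of granule initiation, had 39.3 and 36.3 CPM in *pgm*, against 63.4 and 62.9 CPM in WT (-0.75 ± 0.12). *SS3* had 96.9 and 81.2 CPM in *pgm*, against 109 and 101 CPM in WT and did not pass (adjusted p = 0.093). With library totals alone the breakdown genes were 7 higher and 6 lower.

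Nitrogen assimilation, which needs carbon skeletons, fell at dawn. Of 13 genes tested, 2 were higher and 9 lower, against 28.9% lower among all genes tested, with a median log2 fold change of -1.56. The median became -1.08 without the first *pgm* or the first WT library, -1.48 without the second *pgm* library, -0.96 without the second WT library and -1.01 in DESeq2. In each of these settings 15 genes of the list were tested, so the medians cover a different set of genes. With only the ZT0 libraries, where 13 were tested, it was -1.54. The nitrate reductase *NIA1* had 166 and 123 CPM in *pgm*, against 749 and 597 CPM in WT (-2.22 ± 0.13, adjusted p = 1.4e-10). The nitrite reductase *NIR1* had 80.3 and 64.9 CPM in *pgm*, against 278 and 247 CPM in WT (-1.85 ± 0.12). *NPF6.3*, the nitrate transporter and sensor also called NRT1.1, had 20.8 and 21.8 CPM in *pgm*, against 95.6 and 95.5 CPM in WT (-2.19 ± 0.14). *GLT1*, the NADH-dependent glutamate synthase, had 278 and 291 CPM in *pgm*, against 1104 and 940 CPM in WT (-1.86 ± 0.16). The 2 asparagine synthetases moved in opposite directions. *ASN2* had 148 and 129 CPM in *pgm*, against 492 and 508 CPM in WT (-1.86 ± 0.11). *ASN1*, given above among the starvation markers, was 45.1-fold higher. The other higher member was the second nitrate reductase *NIA2*, with 3680 and 3358 CPM in *pgm*, against 2718 and 2561 CPM in WT (0.40 ± 0.13, adjusted p = 0.016). Its call was lost without the first *pgm* library (0.35) or the second WT library (0.36), and under library totals alone its log2 fold change was -0.05, so its direction rests on the scaling. *NIA2* was the more abundant of the nitrate reductases in both groups. Of 10 tested genes known to be induced by sugar, 6 were lower, against 28.9% of all genes tested, and 1 was higher (median -0.84). This list shares *NIA1*, among the lower genes, and *NIA2*, its only higher gene, with nitrogen assimilation. The lower genes included the D-type cyclin *CYCD3;1*, which starts the cell cycle in response to sugar, with 24.2 and 25.2 CPM in *pgm*, against 43.9 and 41.9 CPM in WT (-0.82 ± 0.15). The anthocyanin synthase *LDOX* had counts of 1 and 0 in *pgm*, against 43 and 86 in WT, a WT-over-*pgm* ratio of 51.3 (95% counting interval 9.04 to 2041).

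Genes that make aliphatic glucosinolates, the methionine-derived defense compounds of *Arabidopsis*, fell as a group. This list was drawn up after the values were seen, so its counts describe the pattern and do not test it. Of 23 genes, none was higher and 20 were lower, 18 of them by at least 2-fold, where 15.5% of all genes tested fell that far, and 20 lay below every WT library of the day, where 24.1% of all genes tested did. The median log2 fold change was -2.53, or -2.40 with genes at 0 in *pgm* set at their bounds. The regulators came down with the enzymes: *MYB28* had 12.5 and 8.12 CPM in *pgm*, against 63.3 and 62.5 CPM in WT (-2.54 ± 0.20). *MYB29* had 0.945 and 0.854 CPM in *pgm*, against 13.7 and 17.2 CPM in WT (-4.08 ± 0.41). Chain elongation was represented by *MAM1*, with 33.4 and 22.2 CPM in *pgm*, against 152 and 182 CPM in WT (-2.53 ± 0.21). For the core cytochrome P450 *CYP79F1* there were 0 and 1 counts in *pgm*, against 661 and 1017 counts in WT, a WT-over-*pgm* ratio of 667 (95% counting interval 120 to 26362). *CYP83A1*, the next P450, had 16.4 and 10.7 CPM in *pgm*, against 131 and 180 CPM in WT (-3.45 ± 0.22, adjusted p = 3.1e-10). The side-chain oxygenase *FMO GS-OX3* had no count in *pgm*, against 18.9 and 29 CPM in WT, and was at least 25.9-fold lower in *pgm* against a floor of 3 counts per library. *CYP79F1* and *CYP79F2*, like the *FMO GS-OX* genes, are close copies of each other, so reads may have been shared between them. Not every step moved: *IIL1*, the large isomerase subunit that also serves leucine synthesis, had 263 and 232 CPM in *pgm*, against 245 and 267 CPM in WT. *FMO GS-OX4* had 26.6 and 31.6 CPM in *pgm*, against 33.5 and 26.2 CPM in WT. The low *FMO GS-OX2* had a mean of 1.59 CPM in *pgm*, against 1.49 and 2.01 CPM in WT.

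**Figure D3:**
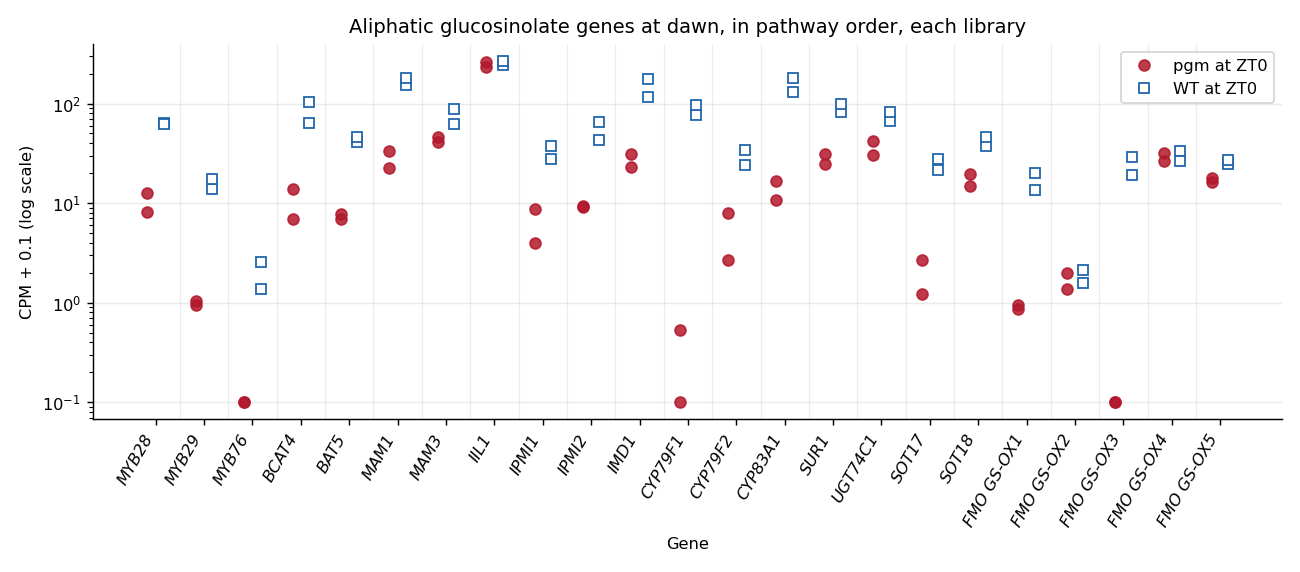
Level of the 23 aliphatic glucosinolate genes in each library at ZT0, as CPM plus 0.1 on a log axis and in pathway order, with *pgm* (filled circles) left of WT (open squares). Regulators, chain elongation and core enzymes lie lower in *pgm*, with *CYP79F1* and *FMO GS-OX3* at or near 0, while *IIL1*, *FMO GS-OX2* and *FMO GS-OX4* overlap between the groups.

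Cell wall genes of growth were lower more often than higher. Of 22 expansins, proteins that loosen the wall during cell expansion, 12 were lower and 1 was higher (median log2 fold change -0.57, or -1.15 without the first and -0.31 without the second *pgm* library), and of 25 xyloglucan endotransglucosylase/hydrolase (XTH) genes, 11 were lower and 3 higher (median -0.92), or 18 lower with library totals alone, where 28.9% of all genes tested were lower. *EXPA8* had 12.8 and 9.4 CPM in *pgm*, against 67.7 and 78.1 CPM in WT (-2.67 ± 0.17). *EXPA5* had 3.59 and 4.27 CPM in *pgm*, against 20.6 and 30.9 CPM in WT (-2.78 ± 0.27). *XTH7* had the largest drop in CPM among the XTH genes, with 6.23 and 8.54 CPM in *pgm*, against 116 and 174 CPM in WT (-4.39 ± 0.28). The family was not uniform, since *XTH25* had 26.6 and 28.6 CPM in *pgm*, against 1.6 and 2.29 CPM in WT (3.77 ± 0.38) and *XTH24* was 3.48-fold higher. Cytosolic ribosomal protein genes did not move as a block: of 132 tested, 47 were higher and 38 lower, against 28.1% and 28.9% of all genes tested. Their median log2 fold change of 0.16 became -0.28 (11 higher, 63 lower) with library totals alone. Near-identical copies in this family may share reads. The lowest was *RPL3B*, with 11.7 and 9.4 CPM in *pgm*, against 42.6 and 40.5 CPM in WT (-1.94 ± 0.14), and the highest *RPL18AA*, with 124 and 117 CPM in *pgm*, against 31.8 and 30.8 CPM in WT (1.93 ± 0.11).

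The largest rise among genes with at least 10 CPM in the higher group was that of *MIOX4*, an inositol oxygenase that feeds cell wall sugar metabolism and is known as a gene that sugar represses, with 295 and 257 CPM in *pgm*, against 1.6 and 1.62 CPM in WT, 168-fold (7.39 ± 0.23, adjusted p = 4.0e-14). *AT1G15330*, described as a protein with cystathionine beta-synthase domains, had 210 and 205 CPM in *pgm*, against 2.86 and 2.1 CPM in WT (6.38 ± 0.21). The vicilin-like gene *PAP85*, a relative of seed storage proteins, had 92.2 and 79.4 CPM in *pgm*, against 2.06 and 1.34 CPM in WT (5.67 ± 0.28). For all 15 leading rises both *pgm* libraries lay above every WT library of the day, as they did for 24.9% of all genes tested. The 15 were picked as the largest rises at ZT0 with non-overlapping libraries, so part of this follows from the choice. Of the 15, 3 are neighbors on chromosome 1. *AT1G19530* (TAIR10.1 chr1:6763765-6765049) had 373 and 357 CPM in *pgm*, against 10.9 and 6.4 CPM in WT (5.41 ± 0.20). *AT1G19540* (chr1:6765653-6768290) had 237 and 224 CPM in *pgm*, against 5.72 and 4.68 CPM in WT (5.46 ± 0.13). *AT1G19550* (chr1:6767451-6768158) lies within the span of *AT1G19540* on the other strand, and as the labels name a stranded and an unstranded library kit without assigning them, and the counting step is not given in the sources used here, its reads cannot be told apart from those of its neighbor.

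Of the 15 leading falls, 5 belong to the glucosinolate and XTH lists: *CYP79F1*, *FMO GS-OX3*, *FMO GS-OX1*, *XTH7* and *XTH17*. A further gene of the glucosinolate side chain that is not in the list, *AOP2*, had 2 and 0 counts in *pgm*, against 90 and 171 counts in WT, a WT-over-*pgm* ratio of 51.9 (95% counting interval 14.2 to 431). The receptor kinase *CRK30* had 0 and 1 counts in *pgm*, against 195 and 265 counts in WT (ratio 183, interval 32.7 to 7238). The wall-associated kinase *WAK2* had 2 and 0 counts in *pgm*, against 116 and 199 counts in WT (ratio 62.6, interval 17.2 to 519). Enzymes of wall building were also among them. The laccase *LAC11*, which acts in lignin formation, had 0.567 and 0.854 CPM in *pgm*, against 20.5 and 11.3 CPM in WT (-4.57 ± 0.53). The glucanase *GH9B8* had 0.567 and 0.854 CPM in *pgm*, against 12.9 and 12.8 CPM in WT (-4.28 ± 0.36). These *pgm* levels rest on a handful of counts.

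Of 14 clock genes tested, 9 were higher, against 28.1% of all genes tested, and none was lower (median log2 fold change 0.81). The dawn peak genes *CCA1* and *LHY* had 594 and 561 CPM and 1197 and 1226 CPM in *pgm*, against 607 and 591 CPM and 1055 and 1053 CPM in WT, and neither passed (adjusted p = 0.60 and 0.22), with *LHY* at -0.26 under library totals alone in place of 0.19. *PRR7*, a repressor of *CCA1* through which sugar is known to set the clock, had 86.3 and 72.6 CPM in *pgm*, against 16.4 and 13.7 CPM in WT (2.41 ± 0.13, adjusted p = 3.1e-11). WT itself reached 71.9 and 61.4 CPM of *PRR7* at ZT1, so the level in *pgm* at dawn was near that of WT 1 h into the light. *LNK1*, *PRR9* and *GI*, which also rose in WT by ZT1, stood nearer their WT dawn level. Their means were 51.6, 7.33 and 1.97 CPM in *pgm*, against 53.5, 4.16 and 1.45 CPM in WT at ZT0. In WT at ZT1 they were 190, 179 and 66.2 CPM. *LUX*, *PRR5* and *ZTL* were near or above their WT level at ZT1 (8.31, 4.76 and 94.9 CPM in *pgm*, 8.79, 2.62 and 63.2 CPM in WT). A shift in clock phase was not tested. The activating factor *RVE4* had 790 and 816 CPM in *pgm*, against 346 and 353 CPM in WT (1.19 ± 0.11). *ELF3*, part of the evening complex, had 106 and 97.8 CPM in *pgm*, against 50.3 and 37.5 CPM in WT (1.21 ± 0.12).

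Heat shock genes, the main subject of the series, were low at dawn, with 14 of the 16 tested at or under 11.1 CPM in each of the 4 libraries. Of these 16, 2 were higher and 3 lower, against 28.1% and 28.9% of all genes tested (median log2 fold change -0.31, or -0.60 with the groups at 0 set at their bounds). With 1 library left out at a time, the median ranged over -0.58 without the first *pgm* library to -0.17 without the first WT library. Where fewer of the genes were tested the median moved further. It was -0.83 with only the ZT0 libraries (10 genes) and 0.27 with at least 10 counts in each library (4 genes), so its sign depends on the filter. *HSP70* had 2.83 and 3.84 CPM in *pgm*, against 9.39 and 9.07 CPM in WT (-1.56 ± 0.35, adjusted p = 7.6e-04). *HSP101* had 5.67 and 6.83 CPM in *pgm*, against 11.1 and 10.5 CPM in WT (-0.85 ± 0.27). Neither passed without the first *pgm* library, the deeper of the 2, where the log2 fold changes were -1.26 and -0.66. The 2 that rose encode heat shock factors. *HSFA7A* had 55 and 47.8 CPM in *pgm*, against 24.2 and 26.8 CPM in WT (1.01 ± 0.18). *HSFB2A* had 17.4 and 17.1 CPM in *pgm*, against 8.47 and 7.16 CPM in WT (1.13 ± 0.20). Of 17 phosphate starvation genes, 2 were higher and 7 lower (median -0.76, or -0.60 at the bounds), where 28.9% of all genes tested were lower, among them the sulfolipid synthase *SQD2*, with 27.4 and 24.8 CPM in *pgm*, against 53.4 and 49.4 CPM in WT (-0.98 ± 0.24). Without the first *pgm* library 4 of the phosphate genes were lower, a share near that of all genes. Of 10 genes of senescence and chlorophyll breakdown, 5 were higher, against 28.1% of all genes tested, and 1 was lower (median 0.55, or 0.36 without the second *pgm* library). The senescence regulator *NAP* had 27.2 and 19.6 CPM in *pgm*, against 4.69 and 3.34 CPM in WT (2.59 ± 0.22), whereas the late marker *SAG12* had no count in any of the 4 libraries.

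Markers of the organs in a whole seedling moved as well. Of 9 shoot markers, genes of Rubisco and the antenna of the photosystems, 8 were higher, against 28.1% of all genes tested, and their summed level was 43708 and 65313 CPM in *pgm*, against 26156 and 27675 CPM in WT. *RBCS1A*, a Rubisco small subunit, had 8121 and 14212 CPM in *pgm*, against 4412 and 4467 CPM in WT (1.32 ± 0.26), and the *pgm* pools differed from each other more than for the genes above. Copies of the Rubisco and antenna genes are nearly identical and may share reads. Of 12 root markers, 5 were lower, against 28.9% of all genes tested, and 1 was higher, and their summed level was 1589 and 1477 CPM in *pgm*, against 2349 and 2318 CPM in WT. Most of that sum was a single gene, *PYK10*, with a mean of 1201 CPM in *pgm* and 1778 CPM in WT. The sum therefore does not describe the markers as a set. *IRT1*, the iron transporter of the root surface, had 212 and 121 CPM in *pgm*, against 380 and 389 CPM in WT (-1.20 ± 0.26), but the root auxin carrier *PIN2* had 34.6 and 40.2 CPM in *pgm*, against 44 and 41.6 CPM in WT, and did not pass (adjusted p = 0.20). The seed storage markers were at or near 0 in all 4 libraries. With library totals alone 9 root markers were lower and 7 shoot markers higher, and without the second *pgm* library 3 root markers were lower. In whole seedlings fewer cells of a type and less RNA per cell cannot be told apart, and the part of these markers in the lists above was not tested.

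The *pgm* effect was smaller once the lights had been on for 2 h. Higher genes made up 19.4% and lower genes 21.0% of those tested at ZT2, and the effect at ZT2 minus that at ZT0 passed for 6286 genes (31.2%), 2903 of them positive (14.4%) and 3383 negative (16.8%). Without the first *pgm* library at ZT0 the number fell to 4163. The 2251 genes that were at least 2-fold higher at ZT0 had a median log2 fold change of 1.41 then and of 0.48 at ZT2, and the 3129 that were lower had medians of -1.56 and -0.63. As both sets were picked by their values at ZT0, part of that shrinkage follows from the choice. Of the starvation markers, 18 of 21 had a negative difference, and at ZT2 9 were higher and 5 lower (median 0.35), while 15 of 17 amino acid breakdown genes and 9 of 20 starch breakdown genes had one as well. *SIP2*, from the leading rises, had 81.4 and 75.7 CPM in *pgm*, against 88.4 and 125 CPM in WT at ZT2 (difference of the effects -6.05, adjusted p = 1.9e-10). *ProDH1* had 87.9 and 89.7 CPM in *pgm*, against 109 and 138 CPM in WT at ZT2, a log2 fold change of -0.49 where it had been far higher at dawn (difference -4.92). *TPS9* likewise had 10.5 and 11.3 CPM in *pgm*, against 22.4 and 27.7 CPM in WT (difference -2.44). *BAM9* had 51.1 and 42.7 CPM in *pgm*, against 90.2 and 105 CPM in WT (difference -2.69).

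A few markers kept their rise over WT, although their levels fell in both groups. From ZT0 to ZT2 the mean of *SEN1* fell from 3781 to 660 CPM in *pgm* and from 63.2 to 14.2 CPM in WT. That of *DRM2* fell from 582 to 52.7 CPM in *pgm* and from 39.4 to 5.09 CPM in WT. *SEN1* had 714 and 606 CPM in *pgm*, against 12.9 and 15.5 CPM in WT at ZT2, a log2 fold change of 5.52 whose difference from the dawn effect did not pass (difference -0.38, adjusted p = 0.36). *DRM2* had 52.2 and 53.2 CPM in *pgm*, against 4.58 and 5.59 CPM in WT (difference -0.53, adjusted p = 0.12). *ASN1* stayed above WT with 210 and 164 CPM in *pgm*, against 9.97 and 15.1 CPM in WT, although its effect was smaller than at dawn (difference -1.63). Its mean in *pgm* fell from 3559 CPM at ZT0 to 187 CPM at ZT2, and in WT from 78.4 to 12.5 CPM. Some genes that were lower than WT at dawn were higher than WT at ZT2. *NIA1* had 164 and 165 CPM in *pgm*, against 81.8 and 81.9 CPM in WT at ZT2 (difference 3.21). Its mean in *pgm* was 145 CPM at ZT0 and 164 CPM at ZT2, while the WT mean fell from 673 to 81.9 CPM. *ASN2* had 370 and 421 CPM in *pgm*, against 159 and 166 CPM in WT (difference 3.13). Its mean rose from 139 to 395 CPM in *pgm* and fell from 500 to 163 CPM in WT. The regulator *MYB28* had 162 and 149 CPM in *pgm*, against 92.8 and 89.2 CPM in WT (difference 3.30). Its mean rose in both groups, from 10.3 to 156 CPM in *pgm* and from 62.9 to 91 CPM in WT. Of the glucosinolate genes, 16 of 23 had a positive difference, but their median was still -0.74 at ZT2. *CYP83A1* had 147 and 124 CPM in *pgm*, against 265 and 224 CPM in WT (difference 2.59). *CYP79F1* had 12.9 and 10.1 CPM in *pgm*, against 167 and 126 CPM in WT (difference 5.52). *SQD2* passed from lower to higher, with 219 and 199 CPM in *pgm*, against 128 and 111 CPM in WT at ZT2 (difference 1.78). At ZT2 the *pgm* libraries also carried more organelle RNA, 10.9% and 7.59% of counts in *pgm*, against 0.702% and 0.561% in WT, where at ZT0 the shares were 0.632% and 3.05% in *pgm*, against 0.844% and 0.733% in WT. With nuclear genes only, the effect at ZT2 minus that at ZT0 passed for 6222 genes, close to the 6286 with all genes.

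**Figure D4:**
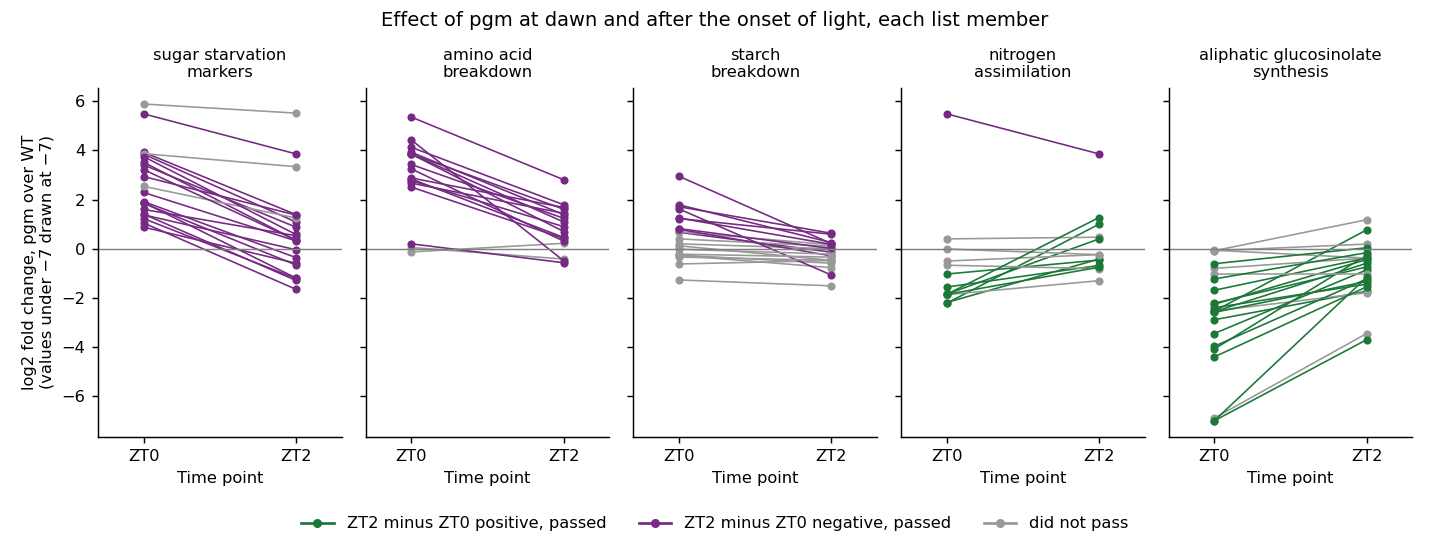
Log2 fold change of *pgm* over WT at ZT0 and at ZT2 for each tested member of 5 lists, joined by a line that is purple where the difference passed and was negative, green where it passed and was positive and grey where it did not pass, with values under -7 drawn at the edge. Fold changes of starvation markers and amino acid breakdown genes come down towards 0 (medians 0.35 and 0.90 at ZT2), and those of nitrogen and glucosinolate genes come up.

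**Figure D5:**
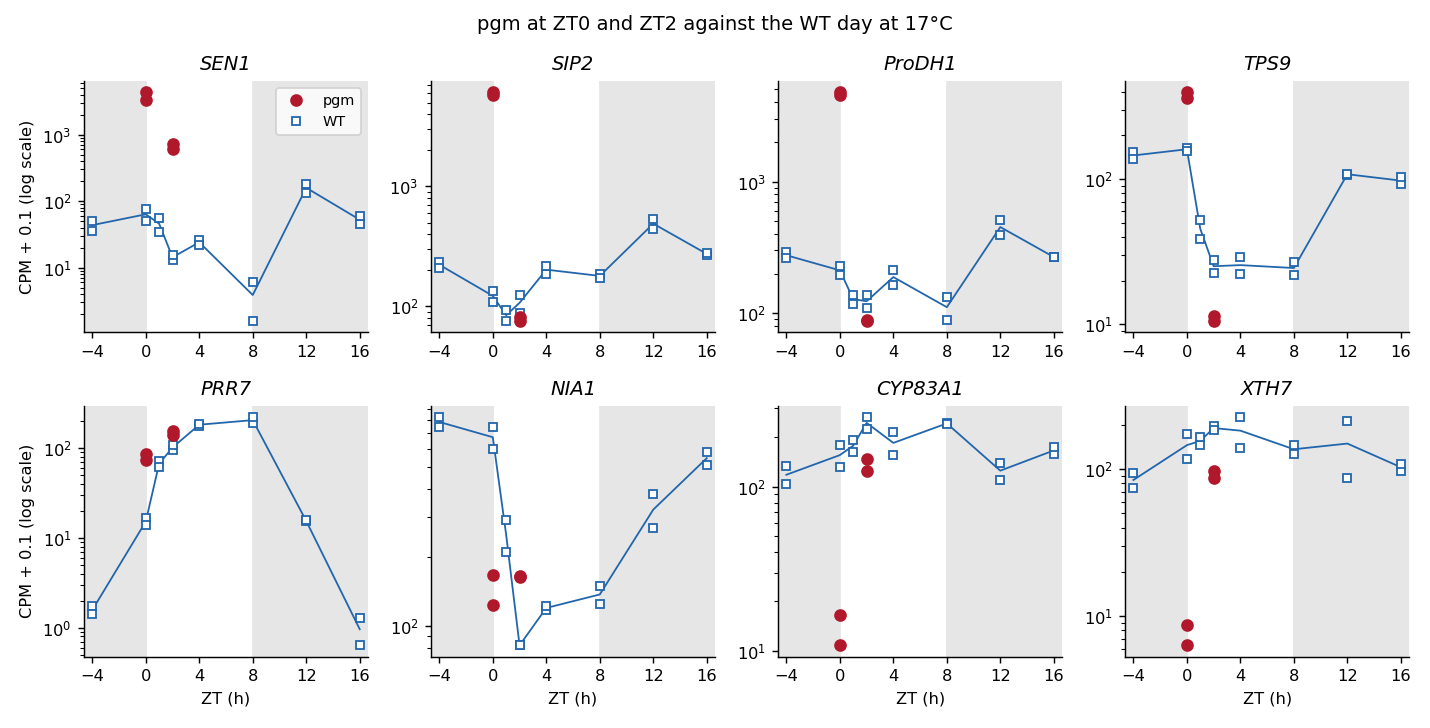
Level of 8 genes through the day in *pgm* (filled circles, ZT0 and ZT2) and WT (open squares and line through the mean, 8 times), as CPM plus 0.1 on a log axis, with the dark period in grey. *SEN1*, *SIP2*, *ProDH1* and *TPS9* in *pgm* at ZT0 lie above every WT time, *CYP83A1* and *XTH7* below every WT time, and *PRR7* and *NIA1* within the range WT covers in a day.

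The WT libraries belong to the time course of WT and *ss4-1*, whereas the *pgm* libraries belong to a group of starch mutants sampled at ZT0 and ZT2 only, and no label places WT and *pgm* in 1 growth or sequencing run. An effect of the genotype and one of the set therefore cannot be told apart in this comparison. Values of other genotypes at ZT0 are set beside them here without a test. *SEN1* had 1973 and 2613 CPM in *ss3/4*, 3233 and 2776 CPM in *ss3/4/pgm* and 51.5 and 50 CPM in *ss4-1*. *SIP2* had 3322 and 5012 CPM in *ss3/4*, 5295 and 5441 CPM in *ss3/4/pgm* and 105 and 103 CPM in *ss4-1*. On these genes the 2 mutants sampled at the same times as *pgm* stood near it, and the libraries labelled *ss4-1*, from the time course, stood near WT. *CYP83A1* followed the same order, with 21.3 and 12.7 CPM in *ss3/4*, 11.9 and 10 CPM in *ss3/4/pgm* and 181 and 193 CPM in *ss4-1*. *ICL* and *IRT1* did not, since *ICL* had 364 and 439 CPM in *ss3/4*, well above the *pgm* level, and *IRT1* had 8.42 and 2.44 CPM in *ss3/4*, well below it. Transcript levels bear out the *ss3* label but not that of *ss4*. *SS3* had 24.8 and 28.4 CPM in *ss3/4* and 25.2 and 31.8 CPM in *ss3/4/pgm*, against 109 and 101 CPM in WT. *SS4* had 61.7 and 55.6 CPM in *ss3/4* and 60.9 and 58.1 CPM in the libraries labelled *ss4-1*, against 63.4 and 62.9 CPM in WT, so its level does not tell them from WT.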

How the data were processed

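RNA-seq libraries of whole seedlings were used as the authors deposited them, as raw counts per gene with no normalization. The submitters' notes name TAIR10, FastQC, Trimmomatic, TopHat and Picard; the counting step is not given in the sources used here. The labels name a stranded and an unstranded TruSeq kit and 2 sequencing centres without assigning libraries, and the study's methods name the stranded kit alone. Since no source says whether strand was used in counting, overlapping and antisense genes are treated as not told apart. The libraries of a pair differed beyond counting noise, with a chi-square per degree of freedom of 11 in *pgm* and 3.11 in WT at ZT0.

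Groups came from the labels. The 16 libraries of WT, *pgm*, *ss3/4* and *ss3/4/pgm* at ZT0 and ZT2 were fitted together in edgeR 4.0.16 (R 4.3.3, TMM, filterByExpr, quasi-likelihood test, Benjamini-Hochberg over 20130 of 33557 genes, threshold 0.05), giving *pgm* against WT at ZT0, at ZT2 and the difference of the 2 effects. The 8 groups thus share 1 estimate of the spread. With 2 libraries against 2 an exact permutation test could not reach 0.05. Printed CPM are the deposited counts divided by library total and a TMM factor over the 44 libraries at 17°C. Fold changes of groups with no counts are bounds against 3 counts per library, and counting intervals are exact 95% intervals for counting error only. Gene names, coordinates and promoters come from RefSeq's TAIR10.1, matched by locus for 32810 IDs. Scripts were tested on simulated counts.

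Genes were named from fixed lists, by the 15 largest rises and 15 largest falls with non-overlapping libraries and at least 10 CPM in the higher group, and by family (ribosomal proteins, expansins and XTH genes, counts with extremes). Members and lists were chosen with earlier results of these data known, and the aliphatic glucosinolate list after the values were seen, so lists are described and not tested as sets. Alternatives were DESeq2 1.42.0, other size factors, filters and library sets, a replicate block, nuclear genes only and leaving out each library; library totals alone were added after seeing the data.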

Additional observations from a re-analysis of the deposited data

Results flagged for a closer look

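For 11 genes whose values at ZT2 are given, the effect of *pgm* differed between ZT0 and ZT2 in the test of the difference itself (effect at ZT2 minus effect at ZT0, quasi-likelihood test of edgeR, with adjusted p under 0.05 over all genes tested). The difference was negative for *SIP2* at -6.05 (adjusted p = 1.9e-10), *ProDH1* at -4.92 (1.9e-10), *BAM9* at -2.69 (2.7e-08), *TPS9* at -2.44 (9.8e-08) and *ASN1* at -1.63 (9.0e-04), all of them higher in *pgm* at dawn. It was positive for *CYP79F1* at 5.52 (6.0e-04), *MYB28* at 3.30 (1.7e-08), *NIA1* at 3.21 (1.0e-09), *ASN2* at 3.13 (2.4e-10), *CYP83A1* at 2.59 (1.6e-06) and *SQD2* at 1.78 (1.8e-04), all of them lower in *pgm* at dawn. The value of *CYP79F1* rests on 1 count in the 2 *pgm* libraries at ZT0, so its size is uncertain. Differences that passed made up 14.4% of genes tested in the positive and 16.8% in the negative direction.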

How the results depend on the processing

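The number of genes called at ZT0 was 11478 and lay between 8675 and 12373 under all alternatives, with 9685 in DESeq2. Leaving out a library gave 8675 to 10090 calls at ZT0 and 4163 to 5345 for the difference between ZT2 and ZT0. With library totals alone 2861 genes were higher and 9512 lower, and the list counts became 11 for autophagy and 7 for starch breakdown (higher), and 9 for root markers and 18 for XTH genes (lower). Root markers also gave 3 lower genes in DESeq2, with at least 10 counts in each library, with only the ZT0 libraries, and at the low end when libraries were left out in turn (3 to 4). Phosphate genes gave 4 to 7 lower genes when libraries were left out. Glucosinolate genes gave 12 lower genes with at least 10 counts in each library, where fewer genes are tested. For the other shifts the cause was not tested.

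Of the named genes with a fit, 96 were called, and 1312 of their 1326 values under alternatives kept direction and call, while 13 values of 7 genes lost the call and 1 reversed. Counting genes that were not called too, reversed values under library totals alone were -0.05 for *NIA2*, -0.26 for *LHY*, -0.24 for *P5CDH* and -0.39 for *D2HGDH*, which was also -0.05 with at least 10 counts. Without 1 library *BCAT1* ranged over -0.30 to 0.14, *IIL1* over -0.14 to 0.01 and *FMO GS-OX4* over -0.25 to 0.13.

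The replicate numbers did not pair the samples: deviations of same-numbered *pgm* and WT libraries at ZT0 had a correlation of 0, and over all pairs of groups it ran from -0.13 to 0.20. With a replicate block 11426 genes were called at ZT0 and 6217 for the difference between ZT2 and ZT0. The depth of the second *pgm* library limits low genes, since 3 counts there are 1.28 CPM.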
